A study of Mus musculus with 6 samples.

Results

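The keratins and keratin-associated proteins of the E17.5 mouse growth plate were described from 42 transcripts of 42 genes. They were the rows of the series table whose gene symbol is Krt or Krtap followed by a number, together with 2310034C09Rik, a gene beside the Krtap13 genes, and they made up 42 of its 7671 transcripts. RNA-sequencing covered growth plate cartilage of E17.5 embryos of the strain C57BL/6 x 129S4/SvJae, 3 Tet1+/+ and 3 Tet1-/-, with 1 library per sample. The Tet1-/- embryos lacked Tet1, an enzyme that oxidizes methylated cytosine, in all cells, and came from matings of heterozygous mice. The genotypes differed in no other labelled agent or allele, and the labels do not say whether a sample was 1 embryo or a pool, so the spread between samples may be partly technical. Estimated counts per library were available for 21929 transcript identifiers, and among the 42 members they covered 1, Krt42. The expression values below are therefore those of Krt42, and the other 41 members are described by class, position, coding sequence and promoter, with no expression value.

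Keratins are the intermediate filament proteins of epithelial cells. Each filament is built from a type I and a type II keratin that pair with each other, and the pair in use changes with the type of epithelium. Simple keratins serve single-layered epithelia, epidermal keratins the skin and other stratified linings, and hair keratins the cortex of hair and nail, where keratin-associated proteins embed the filaments in a matrix cross-linked through cysteines. Cartilage is not an epithelium, and keratins are not among the proteins that define a chondrocyte.

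The members fell into 4 classes. The simple keratins were Krt7 and Krt8 (type II) with Krt19 and Krt23 (type I), 4 of 6 annotated coding genes of that class. The keratins of epidermis and other stratified epithelia were the largest keratin class, at 13 of 22 genes. They held Krt5, Krt14 and Krt15, keratins of the basal layer, Krt1 and Krt77 of the differentiating layers, Krt16, Krt17 and Krt42, which are used in skin appendages such as the nail, Krt4 and Krt13 of the inner linings such as the esophagus, Krt12 of the cornea, and Krt78 and Krt80. The hair and nail keratins were Krt31, Krt33b, Krt34, Krt35 and Krt36 (type I) with Krt82, Krt84 and Krt86 (type II), 8 of 15 genes. The keratin-associated genes were 17 of 58, namely Krtap1-5, Krtap3-1, Krtap3-2, Krtap6-1, Krtap6-2, Krtap6-5, Krtap7-1, Krtap8-1, Krtap9-3, Krtap11-1, Krtap13, Krtap13-1, Krtap16-3, Krtap19-9b, Krtap21-1, Krtap22-2 and 2310034C09Rik. The table held 37.8% of the 111 annotated coding genes of the families, with the largest share among simple keratins (66.7%) and a share of 29.3% among keratin-associated genes. Of the 8 keratins of the inner root sheath and companion layer, the sleeve around the growing hair, 0 were matched by symbol in the table. The same held for 0 of 2 keratins outside these classes. Krt10, Krt18 and Krt6a, partners or neighbors of listed members, were not among the members. How transcripts were chosen for the table is not given in the sources used here, so these shares describe the table and are no measure of expression.

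**Figure D1:**
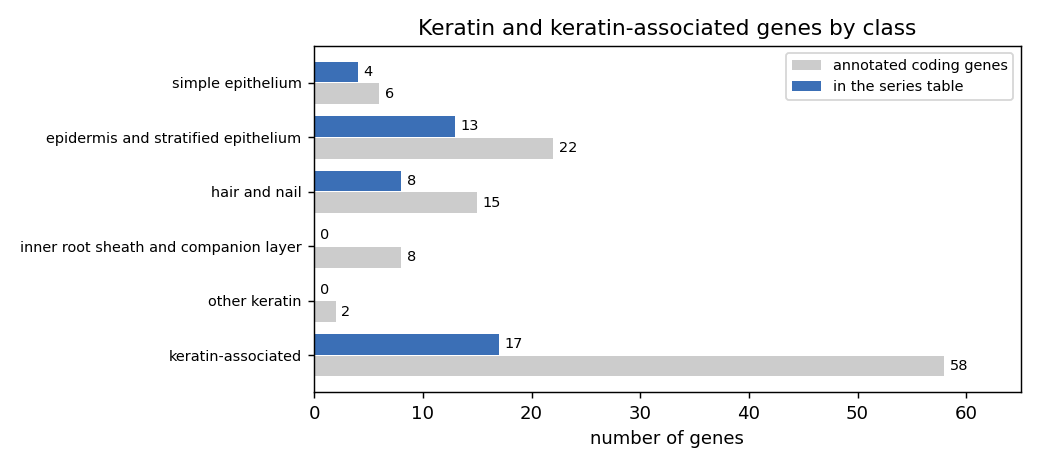
Number of keratin and keratin-associated genes in each class (bars, horizontal axis). Gray bars are the protein-coding genes annotated in GENCODE and blue bars those with a row in the series table. The stratified epithelial class has 13 of 22 genes and the keratin-associated class 17 of 58.

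All members lay in 3 clusters of GRCm38. Chromosome 11 held 18 members between 99415666 and 100269871, a span of 0.854 Mb, all on the minus strand. These were the 14 type I keratins and 4 keratin-associated genes. Chromosome 15 held the 11 type II keratins between 101347444 and 102004482 (0.657 Mb), 9 on the minus and 2 on the plus strand. On chromosome 16, 13 keratin-associated genes lay between 88728862 and 89571183 (0.842 Mb), 10 on the minus and 3 on the plus strand. The 5 annotated genes of the families on chromosome 7, 3 on chromosome 10 and 2 on chromosome 1 were not matched by symbol in the series table. Neighboring members are related by sequence, so they are not independent of each other in what follows.

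The coding sequences, read from the longest coding transcript of each gene in GENCODE, differed between the classes in their medians, while single members of the classes overlapped. Cysteine codons were 0.0% of codons in the median simple keratin, 1.24% in the median epidermal keratin, 6.11% in the median hair keratin and 12.69% in the median keratin-associated gene. Among the simple keratins, 1 of 4 had a cysteine codon, Krt23 (0.71%). The epidermal keratins ran from 0.17% in Krt77 to 3.0% in Krt78, and the hair keratins from 2.49% in Krt84 to 7.69% in Krt31. Both ranges overlapped only through Krt84 and Krt78, and each of the other hair keratins was above every epidermal keratin. Krt42 had 1.33% cysteine codons and 10.84% glycine or tyrosine codons, both inside the epidermal ranges. The second measure did not tell it from other classes, since it also lay inside the simple keratin range (8.06% to 11.91%) and the hair keratin range (4.59% to 13.1%) and below the epidermal median of 15.05%.

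Keratin-associated genes were shorter than any keratin, from 58 codons in Krtap19-9b to 214 in 2310034C09Rik, while the shortest keratin, Krt34, had 392. They were also the most varied class. The 4 genes on chromosome 11, Krtap1-5, Krtap3-1, Krtap3-2 and Krtap9-3, had the highest cysteine shares, from 20.2% in Krtap3-2 to 27.21% in Krtap9-3, with glycine or tyrosine in 4.04% to 17.21% of codons. On chromosome 16, 8 genes had glycine or tyrosine in 47.54% (Krtap8-1) to 69.23% (Krtap6-1) of codons, and the other 5, Krtap7-1, Krtap11-1, Krtap13, Krtap13-1 and 2310034C09Rik, in 11.48% to 29.88%. Krtap19-9b, one of the 8, had no cysteine codon. Among keratins the glycine or tyrosine share was highest in Krt1, at 24.49%, and Krt78, at 1068 codons, was the longest member.

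**Figure D2:**
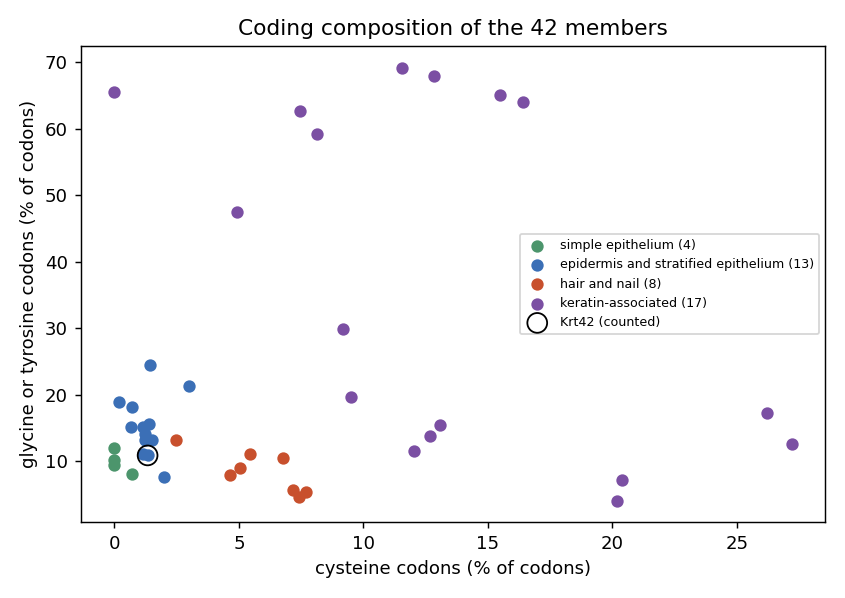
Share of cysteine codons (horizontal axis, % of codons) against the share of glycine or tyrosine codons (vertical axis, % of codons), 1 point per member, colored by class. Krt42 is circled, at 1.33% and 10.84%, while keratin-associated genes spread from 0.0% to 27.21% cysteine and from 4.04% to 69.23% glycine or tyrosine.

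Promoter windows of RefSeq (GRCm38.p6), 250 bases before to 50 bases after a gene's start, were matched for 32 of the 42 genes, as 33 windows. The letters TATAAA, the core of the TATA box at which many strongly regulated genes set their start, were searched on both strands. All 16 keratin-associated windows held them, as did 4 of 6 hair keratin, 2 of 8 epidermal and 1 of 3 simple keratin windows. Over all 32851 windows of the genome the share was 13.6%, against 69.7% for the members. Counting only matches on the gene's strand that began 40 to 20 bases before the start, the share was 1.99% over all windows and 42.4% (14 of 33) for the members. By class it was 68.8% (11 of 16) for the keratin-associated genes, 33.3% (2 of 6) for hair, 12.5% (1 of 8) for epidermal and 0.0% (0 of 3) for simple keratins. The windows of the epidermal class with a match on either strand were those of Krt12 and Krt42. In Krt42 the letters began at base 20 counted from the RefSeq start, which is 61 bases before the start of the gene in GENCODE, 80 bases further down. A match describes these letters in these windows and no binding was measured. The windows of the counted member and of the shortest and longest keratin-associated genes are shown with TATAAA in capitals.

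Krt42 (chr11:100269922-100269991, minus strand, GRCm38.p6): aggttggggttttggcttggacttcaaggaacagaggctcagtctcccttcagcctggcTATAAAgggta
Krtap19-9b (chr16:88932265-88932334, minus strand, GRCm38.p6): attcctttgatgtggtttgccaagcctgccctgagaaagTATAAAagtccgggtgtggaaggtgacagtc
2310034C09Rik (chr16:88758777-88758846, plus strand, GRCm38.p6): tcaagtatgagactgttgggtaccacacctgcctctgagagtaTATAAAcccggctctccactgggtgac

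The Krtap19-9b and 2310034C09Rik windows end at the base before their RefSeq start, and the letters begin 31 and 27 bases before it.

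**Figure D3:**
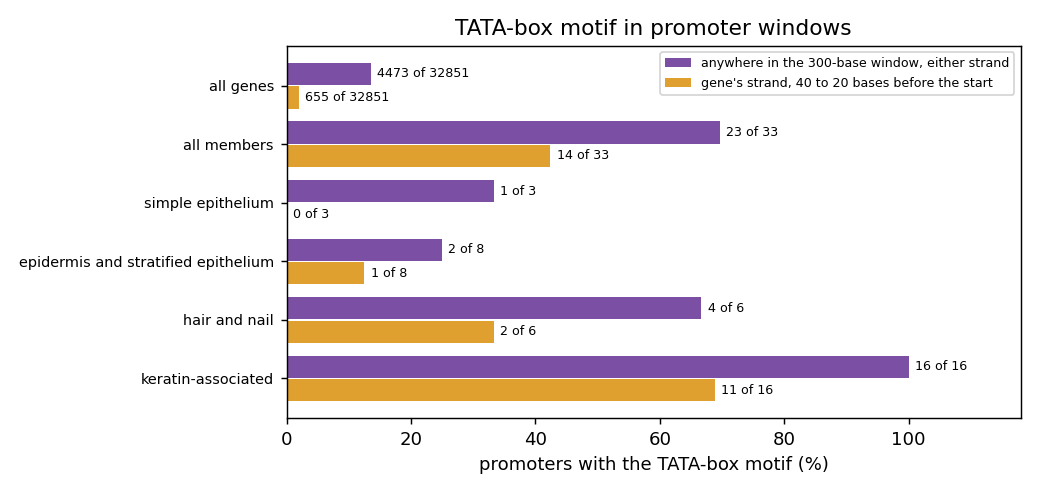
Share of promoter windows (horizontal axis, %) that hold TATAAA, for all genes, all members and each class. Purple bars count either strand anywhere in the window and yellow bars the gene's strand from 40 to 20 bases before the start. Keratin-associated genes stand at 16 of 16 and 11 of 16, against 13.6% and 1.99% of all windows.

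Related members can share reads, which bears on any count of them. Of the 42, 14 had at least one stretch of 100 bases that also occurs in a transcript of another gene, and for 8 at least 10% of such stretches did. The highest shares were 25.1% in Krtap3-2, with Krtap3-3, 24.6% in Krt86, with Krt81, Krt83 and Krt87, and 24.3% in Krt16, with Krt14 and Gm11597. A gene on the other strand overlapped 5 members, Krt5, Krt7, Krt8, Krt12 and Krt80. For Krt42, 0 of 1443 stretches of 100 bases were shared, and no annotated gene overlapped it on either strand. These are exact matches, and reads that were trimmed shorter or aligned with mismatches could still be shared. Over the aligned coding sequence Krt42 was 81.1% identical to Krt14 and 80.2% to its neighbor Krt17. Among the 13 other type I members, the only genes compared in this way, the longest identical runs, shown to locate where Krt42 is most like its relatives, were 49 bases with Krt14 in exon 4 and 53 bases with Krt17 in exon 3, both coding and given on the gene's strand.

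Krt42 and Krt14 (chr11:100265605-100265653, minus strand, GRCm38): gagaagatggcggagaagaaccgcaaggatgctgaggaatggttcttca
Krt42 and Krt17 (chr11:100267020-100267072, minus strand, GRCm38): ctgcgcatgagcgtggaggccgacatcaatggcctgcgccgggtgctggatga

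The count libraries were uneven before any keratin was considered. Total counts were 196075, 272306 and 334982 in Tet1+/+ replicates 1, 2 and 3, and 340235, 278567 and 422436 in Tet1-/- replicates 1, 2 and 3. Of the 21929 identifiers 9443 had a count in some library, and 2332 of these (24.7%) had counts in 1 library only. By transcripts found in 1 library alone, Tet1-/- replicate 3 had the most, 600, followed by Tet1-/- replicate 1 with 516, and the other libraries had 195 to 385. Tet1-/- replicate 1 stood highest where larger counts were required. There, 104 transcripts had 100 or more counts and exceeded each of the other libraries 4-fold or more, against 68 in Tet1-/- replicate 3 and 8 to 30 in each of the other 4 libraries. Its total count lay below that of Tet1-/- replicate 3. No count row of Tet1 was analysed, so the genotype labels were not checked against the deleted gene. The cartilage markers Col2a1, Acan, Col9a1, Col11a1, Matn1, Hapln1, Comp and Col10a1 gave counts for 0 of 8 genes, so neither was the tissue label.

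Krt42 (uc007lku.1) is a type I keratin known from the nail. Its gene (chr11:100262882-100269871 in GRCm38, minus strand) is next to that of Krt17 (chr11:100256217-100261029). Its counts were 0, 0 and 0 in Tet1+/+ replicates 1, 2 and 3, and 340, 0 and 0 in Tet1-/- replicates 1, 2 and 3. All of its counts thus came from Tet1-/- replicate 1, and the other Tet1-/- libraries did not differ from the Tet1+/+ libraries. In that library Krt42 reached 999.3 CPM (counts per 1000000 total counts; exact Clopper-Pearson 95% interval 896 to 1111, for counting error only) and ranked 156th of 5734 counted transcripts, where the median count was 17. The CPM here are relative to the sum of the counts analysed, which leave out most of the transcripts in the series table and are far fewer than the reads of a library, so they are no share of all reads and overstate such a share. A count of 0 allows up to 3 counts, or 15.3, 11.02 and 8.96 CPM in the Tet1+/+ libraries and 10.8 and 7.10 CPM in Tet1-/- replicates 2 and 3. Against the highest of these limits, the measured value in Tet1-/- replicate 1 was at least 65.3-fold higher than in any other library, or 58.6-fold when the lower end of its interval is used.

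Between genotypes Krt42 was at 0.0 ± 0.0 CPM (SD, n = 3) in Tet1+/+ and 333 ± 577 CPM (SD, n = 3) in Tet1-/-, and the groups overlapped at 0. The difference of 333 CPM was smaller than the spread among the Tet1-/- libraries, and the two-sided exact permutation p was 1. Both follow from having counts in 1 library alone, whatever their number, so neither tests the genotypes for Krt42. For other transcripts, 3 against 3 libraries cannot give a permutation p below 0.1. Without Tet1-/- replicate 1 the difference for Krt42 was 0 CPM. Krt42 did not pass the filter on low counts, which needs a transcript to reach a minimum CPM in at least 3 libraries. It so had no value in edgeR's quasi-likelihood test. With no filter, its unadjusted p was 0.0952 and its Benjamini-Hochberg adjusted p 0.588 by the same edgeR test, and 1080 of 9443 transcripts had a smaller p. As background, edgeR called 0 of the 3503 transcripts that passed the filter (0%) at an adjusted p under 0.05 and 161 (4.6%) at an unadjusted p under 0.05, while DESeq2 called 48 at an adjusted p under 0.05. With no filter edgeR called 3 (0.0318%) and 413 (4.37%) of 9443. The CPM of the genotypes did not overlap for 740 transcripts (7.84%), 331 of them (3.51%) higher in Tet1-/-, and Krt42 was not among them. In these bulk libraries, the number of cells of a type and the RNA per cell cannot be told apart.

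A high count in 1 library alone was not particular to Krt42. Among the 9443 transcripts, 77 (0.815%) had at least 100 counts in 1 library and 0 in the other 5, and 28 of these (0.297%) were high in Tet1-/- replicate 1, as Krt42 was. Tet1-/- replicate 3 had 22 and replicate 2 had 5. The Tet1+/+ libraries had 2, 11 and 9.

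**Figure D4:**
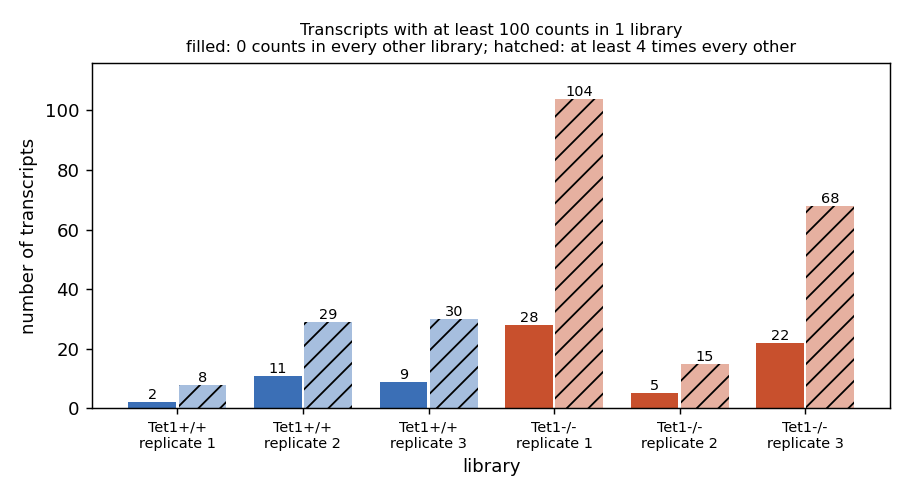
Number of transcripts (vertical axis) with at least 100 counts in 1 library, for each library (horizontal axis, blue Tet1+/+, red Tet1-/-). Filled bars count transcripts at 0 in every other library and hatched bars those that exceed each other library 4-fold or more. Tet1-/- replicate 1 has 28 and 104, and Krt42 is in both of its bars.

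Few other counted transcripts could be named. Of the 21929 identifiers, 21 also had a row in the series table, and 10 of these carried a symbol, Krt42 and 9 others. By the Pearson correlation of log2(CPM + 1) with Krt42 over the 6 libraries, the nearest was Klk15, of the kallikrein family of serine proteases, with r = 1.00 and Spearman's rho = 1.00. Its counts were 0, 0 and 0 in Tet1+/+ and 293, 0 and 0 in Tet1-/- replicates 1, 2 and 3, the same presence in 1 library. This r and rho are fixed by construction, since each of the 516 transcripts counted only in Tet1-/- replicate 1, Krt42 among them, has 1.00 for both with every other. The next was CALM5 (r = 0.78, rho = 0.66), with counts of 0, 7 and 5 in Tet1+/+ and 255, 0 and 11 in Tet1-/-. Edar, the ectodysplasin receptor through which hair and tooth placodes form, followed (r = 0.74, rho = 0.65) with counts of 0, 13 and 8 in Tet1+/+ and 808, 14 and 61 in Tet1-/-. These correlations rest on Tet1-/- replicate 1, since without it Krt42 is at 0 everywhere and none can be computed. Because Krt42 is tied at 0 in every other library, rho has little room to vary. A transcript without ties whose CPM is highest in Tet1-/- replicate 1 has a rho of 0.65, whatever its values. The correlations describe 6 libraries that differ in total counts.

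Edar was the only counted gene of a list of 20 epidermal genes other than keratins, of which 14 had a row in the series table, so the list as a whole was not measured and the values are those of Edar alone. Its level was 0.0, 47.7 and 23.9 CPM in Tet1+/+ replicates 1, 2 and 3, and 2375, 50.3 and 144 CPM in Tet1-/- replicates 1, 2 and 3. The highest library was the one that held Krt42, and the defining epidermal markers Lor, Flg, Ivl and Trp63 were not analysed by count. The genotypes did not overlap for Edar (exact permutation p = 0.1, the smallest the design allows), as for 3.51% of all counted transcripts in that direction, and the nearest libraries differed by 14 against 13 counts, which is within counting error. Of 6 genes listed as partners of keratin filaments, such as plectin and desmoplakin, of 3 muscle genes and of 2 globin genes, 0 had counts that could be read here. The part of epidermal cells in the count of Krt42 was not tested.

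Of the 10 named transcripts, 8 (80%) had their highest count in Tet1-/- replicate 1, Krt42 included, against 1856 of the 9443 counted transcripts (19.7%). Scaled to CPM, 7 (70%) were highest there, against 1775 of 9443 (18.8%). These 10 are the counted transcripts that carry a symbol, a small set that the table fixed, and the difference was not tested. Beside Klk15, CALM5 and Edar these were Arl5c, Gm8692, Snord93 and Nfkbiz, which unlike Krt42 were counted in at least 4 of the other libraries. Arl5c had 0, 93 and 78 counts in Tet1+/+ and 1249, 70 and 209 in Tet1-/- replicates 1, 2 and 3. Its r with Krt42 was 0.54. Its rho (0.65) was fixed, as for Edar, because it has no ties and its highest CPM in Tet1-/- replicate 1. Gm8692 and Snord93 reached 12 and 10 counts there against 8 in the next library for each, differences within counting error, with r = 0.66 and r = 0.62 to Krt42. Nfkbiz, a regulator of NF-kB target genes that is active in keratinocytes, was at 2382, 0.0 and 23.9 CPM in Tet1+/+ replicates 1, 2 and 3 and at 2325, 1224 and 23.7 CPM in Tet1-/- replicates 1, 2 and 3. Its high libraries crossed the genotypes, and on the CPM scale the highest was Tet1+/+ replicate 1. The other two named transcripts peaked elsewhere. Ly6c2 had 37 counts in Tet1-/- replicate 1 against 175 in Tet1+/+ replicate 2, and Grip2, a scaffold protein of synapses, was at its lowest there, with 270 counts against 565 to 1780 in the other libraries.

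**Figure D5:**
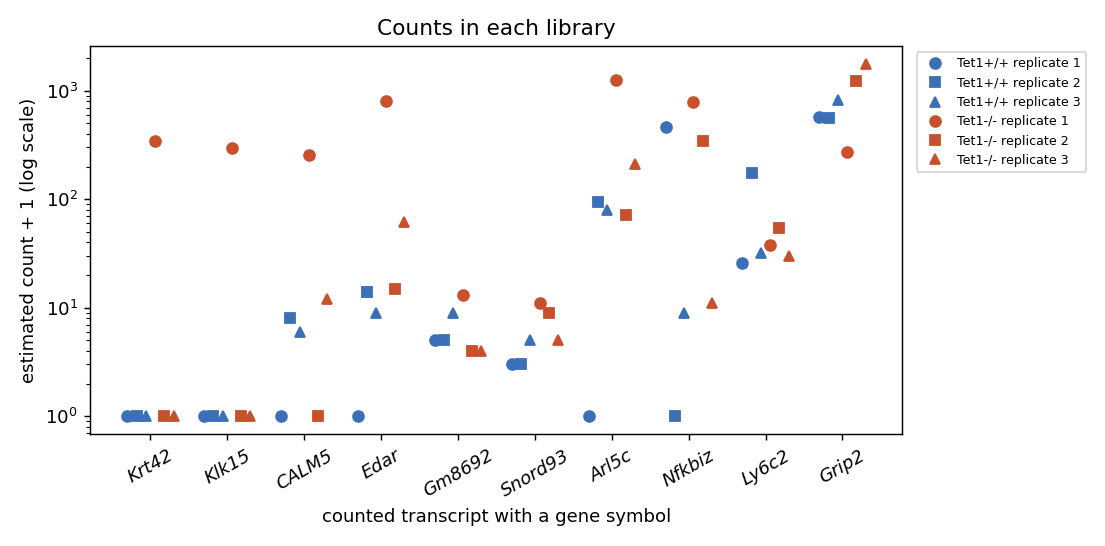
Estimated counts plus 1 (vertical axis, log scale) of the 10 counted transcripts with a symbol (horizontal axis, ordered by correlation with Krt42), 1 point per library, blue for Tet1+/+ and red for Tet1-/-, with the replicate number as the marker shape. Krt42 and Klk15 are above 0 counts only in Tet1-/- replicate 1, at 340 and 293 counts.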

How the data were processed

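Total RNA depleted of ribosomal RNA was read from 6 stranded libraries. Per the labels and the study's methods, the authors trimmed reads with Trimmomatic, mapped them to mm10 with HISAT2 and called transcripts with StringTie. The authors deposited estimated counts per UCSC transcript identifier for each library, unscaled; the counting step and its use of strand are not given in the sources used here. Their series table pairs identifiers with symbols, and its fold changes, p-values and q-values, the authors' own Ballgown comparison, were not used. Totals of 196075 to 422436 counts limit precision. They cover a small part of each library's reads, and CPM were scaled to these totals because the methods give an average read number and not that of each library.

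Counts, whole as deposited, were tested with edgeR 4.0.16 (quasi-likelihood, TMM, filterByExpr, genotype only) in R 4.3.3, with DESeq2 1.42.0 and limma 3.58.1 as alternatives. The fits were tested on simulated data, with no outcome given here, so that step is no support for them. No library repeated another by a chi-square test. Positions and coding sequences came from GENCODE vM21 (GRCm38), where all 42 symbols matched, and were read with Python 3.11.15 and Biopython 1.88. Shared stretches were 100-base windows of the longest coding transcript.

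Every counted member is named with its counts, and the others by class. The 3 transcripts given as most like a counted member by Pearson correlation were ranked only among counted transcripts that carry a symbol. The members, classes and marker lists were chosen with earlier results of these data known.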

Additional observations from a re-analysis of the deposited data

How the results depend on the processing

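The difference of mean CPM of Krt42 between Tet1-/- and Tet1+/+ was 333. It was 369 with a common library size and ran from 0 to 499.7 when each library was left out in turn, and 0 was the value without Tet1-/- replicate 1. The fitted tests that kept the low-count filter gave no value for Krt42, because it has counts in 1 library. With no filter its fitted log2 fold change was 9.79 in edgeR and 20.89 in DESeq2 (standard error 3.91), where DESeq2 gave no p. For edgeR, whose test reports no standard error, a value of 4.51 was calculated back from the fold change and the test statistic. Such fitted values of a transcript at 0 in Tet1+/+ are set by the tool and are no bound. The number of counted transcripts at an adjusted p under 0.05 was 0 with edgeR and TMM, and from 0 to 0 with each library left out. It was 48 with DESeq2, 18 with limma on log2(CPM + 1), 3 with no filter on low counts, 2 with at least 10 counts in every library and 26 with DESeq2 and no filter, an alternative chosen after seeing the data; the cause was not tested. With all libraries the filters themselves set the number tested, at 3503, 9443 or 1691. With each library left out, 3840 to 4239 transcripts were tested. At an unadjusted p under 0.05 the number was 161, against 299 with DESeq2, 413 with no filter, 428 with DESeq2 and no filter, and 148 to 316 with each library left out (316 without Tet1-/- replicate 2, 258 without Tet1+/+ replicate 3). With the replicate block the numbers were 0 and 124. Same-numbered libraries of the genotypes deviated with correlations of 0.018, -0.047 and 0.131, so the numbers were not taken to pair them, and 1 of the 3 Tet1-/- libraries was most like its own number. Counting members by distinct symbol gave 42 and matching identifiers without their version gave 1 counted member, both unchanged. Krt42 rests on 340 counts of 1 library, and 41 members have no count here.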
